A study of Mus musculus with 12 samples.

Results

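The circadian clock and its output were followed in mouse liver through 10 genes, Clock, Per1, Per2, Per3, Cry1, Nr1d1, Nr1d2, Dbp, Tef and Bhlhe40, with all of their array probes. They carried 19 of the 45281 probes on the array, and 9 of the 10 genes had a probe detected in at least 1 liver. The genes were taken by symbol, with earlier results of these data known. Livers of 12 mice had been hybridized as individual samples to Illumina BeadChips, 3 in each of 4 groups. Such a chip takes several samples at once, and which livers shared a chip is not stated. KO LPS and KO UT livers came from Tmprss6 KO mice fed iron-balanced chow, and IDA LPS and IDA UT livers from wild-type littermates made anemic by an iron-deficient diet (IDA). Tmprss6 encodes a liver serine protease that restrains the iron hormone hepcidin. LPS groups received 0.1 mg/kg lipopolysaccharide of E. coli by intraperitoneal injection, UT groups received saline, and livers were taken 6 h later. All mice shared a mixed 129/Ola and C57BL/6 background and were 7 weeks old, having eaten the diet for 3 weeks from 4 weeks of age. Genotype and diet changed together, so no comparison between KO and IDA livers separates them. The KO is constitutive rather than limited to the liver, and the clock time at which livers were taken is not given in the sources used here.

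In the clock of mammalian cells, CLOCK and its partner BMAL1 bind E-box elements and switch on the period (Per) and cryptochrome (Cry) genes, whose proteins return to repress them. A second loop runs through the nuclear receptors REV-ERBα and REV-ERBβ, encoded by Nr1d1 and Nr1d2. Output is carried in part by the PAR bZIP factors DBP and TEF, which act on D-box elements of detoxification and metabolic genes and belong to the strongest daily rhythms known in liver. Because all of these transcripts normally rise and fall over the day, a single time point shows a level and not a rhythm.

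Tmprss6 itself stood at log2 intensities of 7.72 to 8.39 in the 6 KO livers and 9.43 to 11.21 in the 6 IDA livers, without overlap. Between 12641 and 14423 probes per liver were detected (detection p under 0.01), and all 3 KO LPS livers exceeded every IDA liver in that number. The methods describe the KO mice as males, but Xist, which the inactive X chromosome transcribes, was at 11.84 to 12.05 in KO UT 1, KO UT 2 and IDA UT 1 and at 4.80 to 6.73 in the other 9 livers. No LPS-treated liver was Xist-positive. Hepatocyte markers (5 of 5 measured) summed to log2 intensities of 16.89 to 16.97 over all 12 livers, but this sum was set by Ttr and Apoa1, which stood at 15.82 to 15.96, among the brightest signals of the arrays, where changes may not show. Of the dimmer ones, LPS in IDA livers gave log2 ratios of -0.89 for Alb (adjusted p = 0.000992) and -1.64 for Serpina1e (adjusted p = 0.0829). For Fgb the ratio was 1.44 (adjusted p = 4.64e-05). Fgb was detected in 3 of 3 IDA LPS but 0 of 3 IDA UT livers, so that ratio is taken against background. Summed Kupffer cell markers (6 of 7) spanned 11.49 to 12.08 in KO LPS, 11.90 to 12.07 in KO UT, 10.87 to 11.17 in IDA LPS and 11.70 to 12.12 in IDA UT livers. Summed endothelial markers (5 of 6) spanned 12.48 to 12.68, 13.23 to 13.52, 11.35 to 11.80 and 12.94 to 13.25 in the same order of groups, and neutrophil markers (3 of 6) 11.69 to 13.00, 9.46 to 10.10, 13.77 to 14.14 and 8.87 to 10.80. Summed stellate cell markers (5 of 5) spanned 13.89 to 14.19, 13.95 to 14.46, 13.55 to 13.61 and 14.01 to 14.23. Of 5 cholangiocyte markers 1 was measured and of 5 T and B cell markers 0. Cd5l, Kdr and the neutrophil genes Ngp, Camp and Mmp8 were not detected in any liver. Within the Kupffer cell sum, Marco rose with LPS (2.83 in KO and 2.37 in IDA livers) while Vsig4 fell (-1.54 and -2.67). Summed marker signals other than those of hepatocytes thus differed between groups. The part of tissue makeup in the values below was not tested. In whole liver, fewer cells of a type and less RNA per cell cannot be told apart.

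Dbp, Tef and Nr1d2 were lower after LPS in IDA livers, and Dbp and Tef were then higher in KO LPS than in IDA LPS livers. Dbp, the founding PAR bZIP factor, stood at log2 intensities of 13.32, 13.38 and 13.39 in KO LPS livers and 13.76, 13.94 and 13.76 in KO UT livers. In IDA mice it stood at 12.53, 12.58 and 11.71 in LPS livers and 13.74, 13.81 and 13.71 in UT livers. All 3 IDA LPS livers lay below every other liver, and IDA LPS 3 lay lowest. The log2 ratio of LPS over UT was -1.48 in IDA livers (standard error 0.19, adjusted p = 7.19e-05), that is 0.359 of the untreated intensity. In KO livers it was -0.45 (adjusted p = 0.122), with both groups apart but the call not reached. It was reached in 2 of 24 alternatives, with the 6 KO livers fitted alone (adjusted p = 0.0315) and without IDA LPS 3 (adjusted p = 0.00805). After LPS, KO exceeded IDA livers by 1.09 (standard error 0.19, adjusted p = 0.00181), a 2.13-fold difference, whereas without LPS the ratio was 0.07 (95% confidence interval -0.35 to 0.48, adjusted p = 0.892).

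The Interaction contrast, which sets the LPS response of KO against that of IDA livers, was 1.02 for Dbp (standard error 0.27, adjusted p = 0.0339). This was the least secure of the Dbp calls. It was lost when any 1 of KO LPS 1, 2 or 3, KO UT 1 or 3 or the 3 IDA UT livers was left out (adjusted p = 0.0514 to 0.0713), while the ratio stayed between 0.99 and 1.05. Without the 3 Xist-positive livers it was 1.08 (adjusted p = 0.149). The responses in IDA livers and the difference after LPS passed in all 24 alternatives run.

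Tef, the second PAR bZIP factor, was also lowest in IDA LPS livers, with smaller differences than Dbp. Its log2 intensity was 10.78, 10.85 and 10.78 in KO LPS livers and 11.57, 11.07 and 11.14 in KO UT livers. The IDA LPS livers stood at 10.32, 10.41 and 10.26 and the IDA UT livers at 11.22, 11.42 and 11.49. The groups were apart in both genotypes and between KO and IDA after LPS, with IDA LPS lowest. LPS lowered Tef by 1.05 in IDA livers (log2 ratio -1.05, adjusted p = 7.28e-05) and less in KO livers (-0.45, adjusted p = 0.0376), and KO exceeded IDA livers after LPS by 0.48 (standard error 0.14, adjusted p = 0.0212). The Interaction contrast of 0.60 did not pass (adjusted p = 0.0698), so the smaller value in KO is not a called difference of responses. The difference after LPS was lost without KO LPS 1 or 2 or IDA LPS 1 or 3 (adjusted p = 0.0503 to 0.0676). The fall in KO livers was lost without any 1 KO LPS liver, KO UT 1 or 3 or IDA LPS 1 (adjusted p = 0.0501 to 0.116), and without the Xist-positive livers (-0.33, adjusted p = 0.217). A second Tef probe, for another transcript, was detected in none of the 12 livers.

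Nr1d2, the gene of REV-ERBβ, a repressor that shares its response element with REV-ERBα, stood at 9.32, 9.83 and 9.52 in KO LPS livers and 9.86, 10.07 and 9.88 in KO UT livers. IDA LPS livers were at 9.37, 9.20 and 9.46 and IDA UT livers at 10.12, 10.04 and 9.89. LPS livers lay below UT livers in both genotypes without overlap. The log2 ratio passed in IDA livers (-0.68, standard error 0.14, adjusted p = 0.00204) and not in KO livers (-0.38, adjusted p = 0.0815, or -0.52 and 0.0323 without KO LPS 2). The responses were not called different (Interaction 0.30, 95% confidence interval -0.14 to 0.73, adjusted p = 0.380), and KO and IDA livers overlapped with and without LPS.

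**Figure D1:**
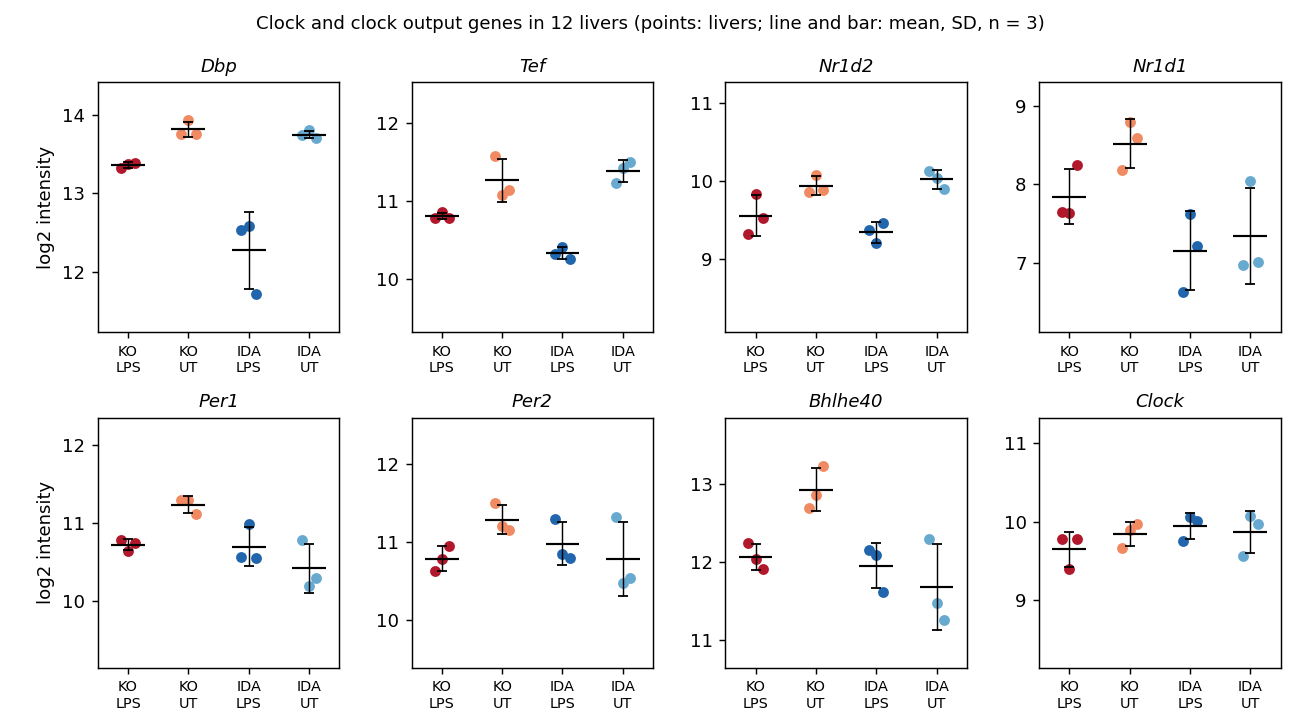
Log2 intensity (vertical axis, each panel spanning the same range) of 8 genes in KO LPS, KO UT, IDA LPS and IDA UT livers. Points are single livers, lines the mean and bars the SD (n = 3 each). Dbp is lowest in the 3 IDA LPS livers (11.71 to 12.58), while Bhlhe40 is highest in the 3 KO UT livers (12.69 to 13.22).

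Sequence upstream of the genes that moved is shown to set the members side by side by the element the clock is known to use. RefSeq (GRCm38.p6) gave 250-base windows just before an annotated start for 8 of the 10 genes, 12 windows in all; Per2 and Bhlhe40 had no entry. The E-box was searched as CACGTG, which reads the same on both strands, and the D-box as TTATGTAA or TTACGTAA on both strands; the motifs do not overlap each other. The E-box was present in 4 of the 12 windows, against 6.02% of 32851 windows of the same length, and the D-box in 1 window, against 0.931%. The 6 windows below are those of Dbp (chr7:45704997-45705246, plus strand), Tef at its upstream start (chr15:81802423-81802672, plus) and its downstream start (chr15:81811164-81811413, plus), Nr1d2 (chr14:18239107-18239356, minus), Per1 at its upstream start (chr11:69098699-69098948, plus) and Nr1d1 (chr11:98775378-98775627, minus). Capitals mark the E-box.
Dbp: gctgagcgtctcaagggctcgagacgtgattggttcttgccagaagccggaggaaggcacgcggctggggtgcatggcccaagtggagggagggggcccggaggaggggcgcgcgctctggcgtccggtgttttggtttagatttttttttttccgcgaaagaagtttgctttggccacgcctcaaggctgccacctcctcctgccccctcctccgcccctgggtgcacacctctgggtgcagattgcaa
Tef, upstream start: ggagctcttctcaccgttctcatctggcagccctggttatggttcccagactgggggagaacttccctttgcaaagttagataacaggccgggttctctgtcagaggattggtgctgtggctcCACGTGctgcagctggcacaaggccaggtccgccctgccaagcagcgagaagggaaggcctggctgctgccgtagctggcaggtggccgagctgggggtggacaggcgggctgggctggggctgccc
Tef, downstream start: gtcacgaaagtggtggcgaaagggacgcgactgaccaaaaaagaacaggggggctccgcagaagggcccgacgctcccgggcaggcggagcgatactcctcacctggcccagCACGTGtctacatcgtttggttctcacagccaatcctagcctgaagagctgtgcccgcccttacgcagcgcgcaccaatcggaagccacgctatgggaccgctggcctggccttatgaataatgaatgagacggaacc
Nr1d2: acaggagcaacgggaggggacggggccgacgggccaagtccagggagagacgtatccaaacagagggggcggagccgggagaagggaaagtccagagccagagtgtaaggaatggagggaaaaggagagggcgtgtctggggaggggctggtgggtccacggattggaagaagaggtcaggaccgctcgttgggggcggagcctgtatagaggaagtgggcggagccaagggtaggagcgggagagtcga
Per1, upstream start: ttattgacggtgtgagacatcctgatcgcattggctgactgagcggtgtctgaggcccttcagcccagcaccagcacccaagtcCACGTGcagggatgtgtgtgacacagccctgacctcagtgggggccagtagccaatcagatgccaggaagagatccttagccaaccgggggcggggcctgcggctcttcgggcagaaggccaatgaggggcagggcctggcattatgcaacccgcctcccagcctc
Nr1d1: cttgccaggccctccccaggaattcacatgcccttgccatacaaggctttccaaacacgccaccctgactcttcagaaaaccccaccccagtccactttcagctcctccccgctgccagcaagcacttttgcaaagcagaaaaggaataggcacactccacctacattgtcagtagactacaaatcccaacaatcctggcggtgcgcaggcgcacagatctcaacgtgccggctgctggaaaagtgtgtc
Both Tef windows hold 1 E-box, beginning 127 and 138 bases before their starts, and the Per1 window shown holds 1 at 166 bases. The window at the downstream start of Per1 (chr11:69099902-69100151, plus), not shown, holds none of the letters searched. The windows of Dbp, Nr1d2 and Nr1d1 hold none of the letters searched, so the 3 genes that fell together in IDA livers did not have them in common within this stretch. The remaining E-box was in the Cry1 window at 60 bases, and the 2 D-boxes, both TTATGTAA, were in the Per3 window at 205 and 158 bases. A match is a match of letters and was not tested for binding.

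Over all members, the fall with LPS in IDA livers was called for 3 of 9 tested genes (33.3%) and a rise for 0, where 26.0% of all 11571 genes and unnamed probes fell and 47.9% passed in either direction. In KO livers 2 of 9 fell (22.2%), Tef and Bhlhe40, against 8.57% of all features lower and 18.8% called. After LPS, 2 of 9 were higher in KO than in IDA livers, against 16.1% of all features higher and 29.8% called. The shares in IDA livers and after LPS were thus not far from those of all features. Livers of the compared groups did not overlap for 6 members lower with LPS in KO livers (18.9% of all features) and 3 in IDA livers (30.4%). The 6 were Dbp, Tef, Nr1d2, Per1, Per2 and Bhlhe40. The median log2 ratio of the 8 members other than Per3 was -0.48 in KO livers and -0.06 in IDA livers, against -0.04 and -0.06 over all features, and Per1, Per2, Bhlhe40 and Clock had ratios above 0 in IDA livers. In the Treatment contrast, which adds the responses of both genotypes, Dbp (-1.93), Tef (-1.50) and Nr1d2 (-1.06) were lower with adjusted p of 0.000115, 5.96e-05 and 0.000992, 3 of 9 against 26.7% of all features lower and 49.0% called. The comparisons share livers (each UT and LPS group enters several), so they are not independent of each other.

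**Figure D2:**
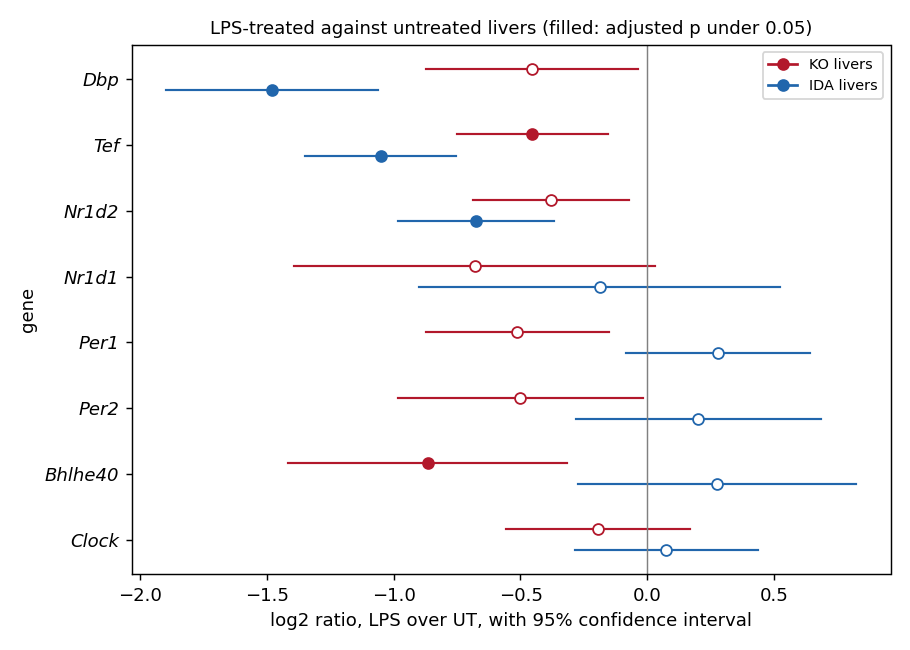
Log2 ratio of LPS over UT livers (horizontal axis) with its 95% confidence interval for 8 genes (vertical axis), KO livers above IDA livers for each gene, filled where adjusted p was under 0.05. Dbp, Tef and Nr1d2 passed below 0 in IDA livers (-1.48, -1.05 and -0.68), and Tef and Bhlhe40 in KO livers (-0.45 and -0.87).

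Without LPS, Bhlhe40 and Per1 were higher in KO than in IDA livers. Bhlhe40 encodes DEC1, a repressor that competes for E-boxes and also responds to hypoxia, feeding and cytokines. It stood at log2 intensities of 12.23, 12.03 and 11.91 in KO LPS livers and 12.69, 12.85 and 13.22 in KO UT livers. In IDA mice the values were 12.14, 12.09 and 11.62 in LPS livers and 12.29, 11.48 and 11.26 in UT livers. The 3 KO UT livers lay above all others, and among the IDA UT livers the Xist-positive IDA UT 1 was highest. The ratio of KO over IDA without LPS was 1.25 (standard error 0.25, adjusted p = 0.0282), or 2.37-fold, against 0.11 after LPS (95% confidence interval -0.44 to 0.66, adjusted p = 0.781).

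LPS lowered Bhlhe40 in KO livers by 0.87 (log2 ratio -0.87, standard error 0.25, adjusted p = 0.0327), and in IDA livers the ratio was 0.27 (adjusted p = 0.396). The Interaction contrast was -1.14 and did not pass (standard error 0.35, adjusted p = 0.0618). Single livers decided these calls. Without IDA UT 1, the response in IDA livers became 0.58 (adjusted p = 0.0358) and the Interaction -1.45 (adjusted p = 0.00842). The untreated difference was lost without KO UT 2 or 3 or IDA UT 2 or 3 (adjusted p = 0.0800 to 0.0999), and the fall in KO livers without KO LPS 2 or 3 or KO UT 2 or 3 (adjusted p = 0.067 to 0.109). Without the 3 Xist-positive livers, which leaves 1 KO UT liver, the untreated difference was 1.86 (adjusted p = 0.0195) and the fall in KO livers -1.17 (adjusted p = 0.0224), with an Interaction of -1.75 (adjusted p = 0.0186). With a term for these livers in their place, the values were 1.17 and -0.71 and neither passed (adjusted p = 0.0591 and 0.176).

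Per1 encodes a period protein, a repressor whose gene is also induced quickly by glucocorticoids. Its brightest probe read 10.78, 10.64 and 10.75 in KO LPS livers and 11.29, 11.30 and 11.11 in KO UT livers. The IDA LPS livers read 10.56, 10.98 and 10.55 and the IDA UT livers 10.78, 10.19 and 10.29. The KO UT livers were above all others, as for Bhlhe40, and IDA UT 1 was again the highest of its group. KO exceeded IDA livers without LPS by 0.82 (standard error 0.16, adjusted p = 0.0286), and after LPS the ratio was 0.03 (adjusted p = 0.926). The untreated call was lost without any 1 KO UT liver or IDA UT 2 or 3 (adjusted p = 0.0591 to 0.104) and without the 3 Xist-positive livers (0.87, adjusted p = 0.119).

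The fall of Per1 with LPS in KO livers (-0.51, adjusted p = 0.0504) and the Interaction (-0.79, adjusted p = 0.0512) lay just outside the threshold. Without IDA UT 1 both passed (-0.51 with adjusted p = 0.0199, and -0.97 with 0.0127), and the response in IDA livers became 0.46 (adjusted p = 0.0265). The fall in KO livers passed in 10 of 24 alternatives, among them the authors' intensities (adjusted p = 0.0298), the compared groups alone (adjusted p = 0.0243), the mean of detected probes (-0.75, adjusted p = 0.00757) and the omission of IDA LPS 2 or IDA UT 2 (adjusted p = 0.0364 and 0.0472). Neither alternative for the Xist-positive livers was among the 10, and over all alternatives the fall ranged from -0.75 to -0.27. A second Per1 probe, also detected in all 12 livers, was tested in a fit of all detected probes. There it gave 0.59 for KO over IDA without LPS (adjusted p = 0.0775), -0.62 for LPS in KO livers (adjusted p = 0.0189) and -0.85 for the Interaction (adjusted p = 0.035), with the same signs as the first. The third probe was detected in KO UT 1 and KO UT 2 only, so it was kept through the group where Per1 was high. It enters the mean of detected probes, and the -0.75 is therefore no separate support for the fall.

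Per2, the period gene most often used as a clock reporter, gave no call in the 7 contrasts. Its brightest probe read 10.63, 10.78 and 10.94 in KO LPS livers and 11.50, 11.21 and 11.15 in KO UT livers, apart. In IDA mice it read 11.30, 10.85 and 10.79 in LPS livers and 11.32, 10.47 and 10.54 in UT livers, overlapping. IDA UT 1 was the high IDA UT liver here too. The ratio was 0.51 for KO over IDA without LPS (adjusted p = 0.256), -0.50 for LPS in KO livers (adjusted p = 0.139) and -0.70 for the Interaction (95% confidence interval -1.38 to -0.02, adjusted p = 0.175). Without IDA UT 1, which is Xist-positive, all of these passed, at 0.78, -0.50 and -0.97 (adjusted p = 0.0371, 0.046 and 0.0265). The response in IDA livers then passed too (0.47, adjusted p = 0.0483). Each passed in that 1 alternative only, of 24 run (23 for the Interaction). Neither alternative for all Xist-positive livers gave a call, and the fall in KO livers ranged from -0.59 to -0.16 over all alternatives.

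The remaining members gave flat, dim or undetected signals. Clock, the activator of the core loop, read 9.39 to 10.07 over all 12 livers, and its 7 contrasts ran from -0.32 to 0.07 with none called. The interval for LPS in IDA livers reached from -0.29 to 0.44, which does not cover a change of the size seen for Dbp. Per3, a period gene with a large daily rhythm in liver, was detected in KO UT 2 alone (6.55) and read 4.98 to 6.55 overall. Its ratios rest on background, the KO over IDA ratio after LPS being 0.60 as measured and -0.33 when each undetected liver was raised to the dimmest detected signal on its array, and no fold is given. Cry1, the cryptochrome that represses CLOCK and BMAL1, was not well above background in any liver (4.66 to 4.88). Of the other probes, 2 for Clock and 1 each for Per2, Per3 and Nr1d2 were detected in no liver.

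Nr1d1 was higher in KO livers when both treatments were added. REV-ERBα, its product, represses BMAL1 and genes of lipid metabolism. It read 7.64, 7.63 and 8.25 in KO LPS livers and 8.18, 8.80 and 8.59 in KO UT livers. In IDA mice it read 6.62, 7.62 and 7.22 in LPS livers, the first not detected, and 6.97, 8.04 and 7.00 in UT livers. KO and IDA livers did not overlap in either state, though the gap after LPS was 0.01. The Genotype contrast, the sum of the KO minus IDA differences with and without LPS, was 1.88 (standard error 0.46, adjusted p = 0.0133), or 1.86 with IDA LPS 1 raised to the dimmest detected signal on its array. With the authors' intensities it was 1.24 and without background correction 1.22, both called (adjusted p = 0.0094 and 0.00977). Neither state passed alone: 1.18 without LPS (adjusted p = 0.0825) and 0.69 after LPS (adjusted p = 0.128). Without IDA UT 2 the untreated difference passed (1.54, adjusted p = 0.042), and without the 3 Xist-positive livers the Genotype contrast did not (1.76, adjusted p = 0.0819). More probes were detected in KO than in IDA livers after LPS, and its part in this dim gene was not tested.

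Counted together, 2 of 9 members passed as higher in KO livers without LPS (22.2%), against 1.59% of all features higher and 2.50% called, and 0 passed as lower. Without overlap there were 3 (Per1, Nr1d1 and Bhlhe40), against 11.0% of all features. Because the members were chosen with earlier results of these data known, such shares do not test for an excess. The calls for Per1 and Bhlhe40 needed the pooled spread of all 4 groups. With the 6 untreated livers fitted alone, Per1 had adjusted p = 0.0991 and Bhlhe40 0.110. In the Genotype contrast 4 of 9 were higher, against 13.1% of all features higher and 24.9% called: Nr1d1 (1.88), Bhlhe40 (1.35, adjusted p = 0.0181), Dbp (1.16, adjusted p = 0.0106) and Per1 (0.84, adjusted p = 0.0231). For Dbp nearly all of the sum came from LPS livers, and for Bhlhe40 and Per1 from untreated livers. The Per1 sum was lost without IDA LPS 1 or 3 or IDA UT 2 or 3 (adjusted p = 0.0522 to 0.0552) and with the mean of its detected probes (0.63, adjusted p = 0.0627), and its second probe had 0.32 (adjusted p = 0.313). That of Dbp was lost without the Xist-positive livers (1.10, adjusted p = 0.0955), and that of Bhlhe40 was then 1.96. After LPS, 4 members were higher without overlap (24.6% of all features), Dbp, Tef, Nr1d1 and Per3, the last being undetected in those livers. In the Interaction contrast 1 of 9 passed, Dbp, against 5.46% of all features higher and 10.9% called.

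**Figure D3:**
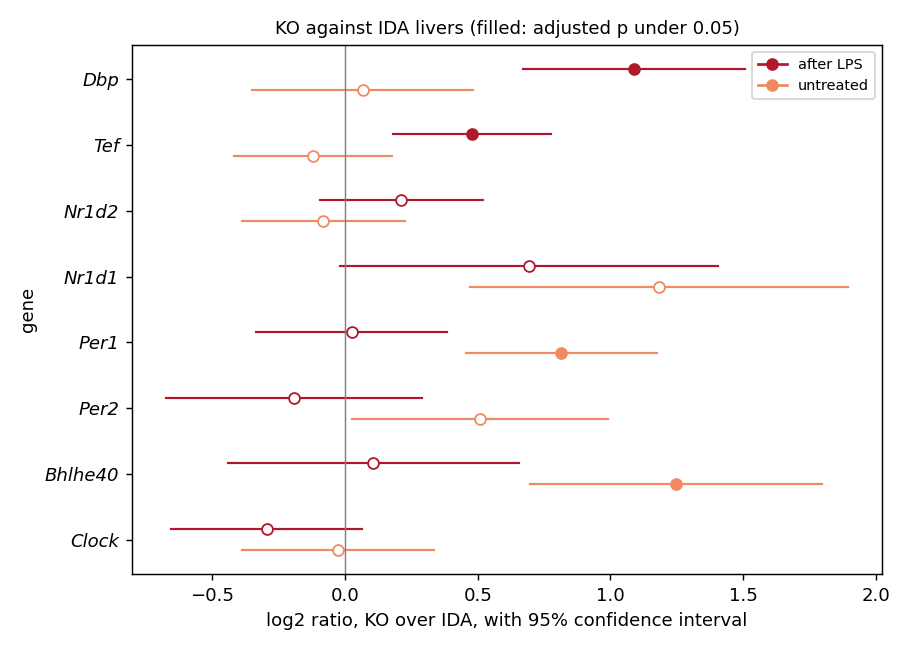
Log2 ratio of KO over IDA livers (horizontal axis) with its 95% confidence interval for 8 genes (vertical axis), after LPS above and untreated below for each gene, filled where adjusted p was under 0.05. Dbp and Tef passed after LPS (1.09 and 0.48), and Per1 and Bhlhe40 in untreated livers (0.82 and 1.25).

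The members did not share 1 pattern over the 12 livers. Likeness was taken as the root mean square difference of 2 genes' log2 intensities, each centred on its own mean, among 9307 named genes. Of all named genes, Per1 ranked 2 in likeness to Bhlhe40 (0.29), after the kinase gene Pim3 (0.28), against a spread of 0.55 for Bhlhe40 itself. In the other direction, Bhlhe40 ranked 285 in likeness to Per1. The closest pair of members was Per1 and Per2 (0.25), Per2 ranking 72 in likeness to Per1 and Per1 ranking 36 in likeness to Per2. Tef ranked 377 in likeness to Dbp, whose nearest genes were Fgfrl1 (0.15) and 1190005I06Rik (0.16). Nearest to Tef were Gm5512 (0.11) and Rmnd1 (0.12), to Nr1d2 Snx14 (0.06) and Fnip1 (0.09), to Per1 Ndufb2 (0.16) and Slc66a2 (0.19), and to Nr1d1 Syne3 and Abcg1 (0.33 and 0.34). The measure follows size as well as shape, so a small mover such as Nr1d2 is near many genes.

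Of 17 other clock genes, 7 were measured, and with LPS 4 fell in KO livers while 1 fell and 1 rose in IDA livers. Over all features 8.57% fell and 18.8% passed in KO livers, and 26.0% fell and 47.9% passed in IDA livers. The measured genes were Cry2, Rora, Ciart, Csnk1d, Csnk1e, Btrc and Timeless. Of the 17, 14 had a probe named here. Among those with probes but no detection were Arntl, the gene of BMAL1, and Arntl2, Npas2, Hlf and Bhlhe41. Rora, an activator at the elements that REV-ERB represses, fell in KO livers (-0.59, adjusted p = 0.00588), to 10.27 to 10.35 in KO LPS against 10.69 to 11.04 in KO UT livers. It also fell in IDA livers (-0.38, adjusted p = 0.0246), a call lost without IDA LPS 1 or 2, IDA UT 1 or 2 or the Xist-positive livers (adjusted p up to 0.0983). Cry2 (-0.56, adjusted p = 0.017) and Ciart (-0.77, adjusted p = 0.0241), both repressors of CLOCK and BMAL1, also fell there, and in IDA livers their ratios were -0.36 and -0.33 (adjusted p = 0.0504 and 0.212). The call for Cry2 was lost without KO LPS 2 or 3 or KO UT 1 and that for Ciart without these or KO UT 3. Both were lost without the Xist-positive livers, Cry2 with a term for them and Ciart with no filter on dim probes, with adjusted p up to 0.225 and 0.097 over all alternatives. The list's median ratio was -0.50 in KO and -0.28 in IDA livers, against -0.04 and -0.06 over all features.

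Csnk1d, the kinase CK1δ that marks PER proteins for degradation, moved in opposite directions. Its log2 intensity was 9.45, 9.34 and 9.41 in KO LPS livers and 9.79, 9.89 and 9.75 in KO UT livers. It was 10.07, 10.10 and 10.20 in IDA LPS livers and 9.33, 9.53 and 9.43 in IDA UT livers. The groups were apart each way, LPS livers being the lower ones in KO mice and the higher ones in IDA mice. The ratios were -0.41 (adjusted p = 0.0121) in KO and 0.69 (adjusted p = 0.000131) in IDA livers, and the Interaction was -1.10 (standard error 0.14, adjusted p = 0.0012), called in all 23 alternatives. The fall in KO livers was lost without KO LPS 2, without the Xist-positive livers and with the mean of all detected probes (adjusted p up to 0.195 over all alternatives). Csnk1e, the related CK1ε kinase, was higher in KO livers without LPS (0.66, adjusted p = 0.0319) and so was Timeless (1.07, adjusted p = 0.019), a replication fork protein. Timeless was detected in 1 of 3 IDA UT livers. The untreated call was lost for Csnk1e without KO UT 2 or 3 or any 1 IDA UT liver, and for Timeless without KO UT 1 or 3 or IDA UT 2 or 3 (adjusted p up to 0.158 and 0.0949 over all alternatives). Both passed in the Genotype contrast (1.05 and 1.40) in all 23 alternatives, where Timeless ranged from 0.73 to 1.61.

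Of 13 liver genes known to follow the clock, 10 were measured; with LPS 4 fell and 1 rose in KO livers, and 5 fell and 2 rose in IDA livers, against 18.8% of all features passing in KO and 47.9% in IDA livers (8.57 and 26.0% lower). The largest change was in Usp2, a deubiquitinase gene with a strong daily rhythm. Usp2 stood at 10.48, 10.10 and 10.32 in KO LPS livers and 11.83, 11.41 and 11.06 in KO UT livers. In IDA LPS livers it stood at 8.70, 7.86 and 8.13, and in IDA UT livers at 12.05, 12.19 and 12.09. As for Dbp, the IDA LPS livers lay below every other liver. The log2 ratio of LPS over UT was -1.14 (adjusted p = 0.0045) in KO and -3.88 (adjusted p = 2.31e-07) in IDA livers. The responses differed (Interaction 2.74, standard error 0.32, adjusted p = 0.000769), and KO exceeded IDA livers after LPS by 2.07 (adjusted p = 0.000123). Averaging the detected Usp2 probes gave smaller values, -2.87 for LPS in IDA livers, 1.71 for the Interaction and 0.99 for KO over IDA after LPS, all still called. The fall of Usp2 in KO livers was lost once the Xist-positive livers were left out (adjusted p = 0.172).

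The glycogen synthase gene Gys2 fell in both genotypes, with log2 ratios of -1.11 in KO and -1.93 in IDA livers (adjusted p = 0.0018 and 7.86e-06). Upp2, a uridine phosphorylase gene, had -0.85 and -1.56 (adjusted p = 0.0155 and 9.94e-05) and Cyp2a5, a P450 gene that DBP and its relatives are known to drive, -0.82 and -0.74 (adjusted p = 0.00352 and 0.00211). The Cyp2a5 probe stood at 15.85 to 15.93 in IDA UT livers, as bright as Ttr and Apoa1, so its ratio in IDA livers may be understated. Ppara, the fasting regulator, fell in IDA livers (-0.86, adjusted p = 0.00475) and had -0.57 in KO livers (adjusted p = 0.0764). Neither Gys2, Upp2 nor Ppara had a called Interaction. Cdkn1a, the cell cycle inhibitor p21, rose in IDA livers (2.49, adjusted p = 6.27e-05) and had 0.79 in KO livers (adjusted p = 0.105), with an Interaction of -1.70 (adjusted p = 0.0333) that was lost without KO LPS 1 or 2, KO UT 1 or 3, any 1 IDA LPS liver or IDA UT 2 (adjusted p up to 0.0769). Nampt, of NAD synthesis, rose in both (0.43 in KO and 0.72 in IDA livers, adjusted p = 0.0413 and 0.000854). Alas1, Lpin1 and Insig2 passed in neither genotype, and Wee1, Por and Elovl3 were not measured. Alas1 read 15.25 to 15.74 over all livers, close to the brightest signals of the arrays, so a rise may not fully show. The Upp2 fall in KO livers was lost without KO UT 3 or without the Xist-positive livers, which leaves 1 KO UT liver (adjusted p up to 0.124), with ratios of -1.11 to -0.80 over all alternatives, and the Nampt rise in KO livers was called in 10 of 24 alternatives.

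**Figure D4:**
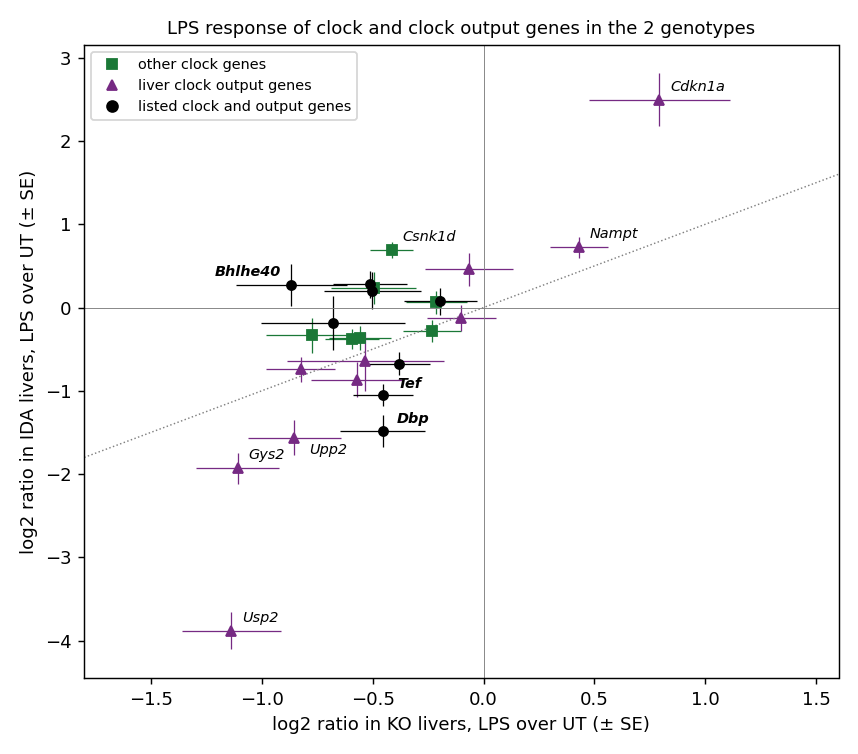
Log2 ratio of LPS over UT in KO livers (horizontal axis) and IDA livers (vertical axis), with standard errors, for 8 of the 10 clock and output genes (circles), 7 other clock genes (squares) and 10 further output genes (triangles). The dotted line marks equal responses. Usp2 (-1.14 and -3.88) and Dbp (-0.45 and -1.48) lie below it, and Csnk1d (-0.41 and 0.69) and Bhlhe40 (-0.87 and 0.27) above.

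Because Per1 and other clock genes answer to glucocorticoids, 8 glucocorticoid-induced genes were counted beside them, all measured. With LPS 1 fell in KO livers (Pck1, -0.55, adjusted p = 0.0499, called in 7 of 24 alternatives) and 2 in IDA livers (Pck1, -1.20, and Tsc22d3, -0.98, adjusted p = 0.000179 and 0.0023), and none rose, against the 8.57 and 26.0% of all features that fell. Without LPS 1 was higher in KO than in IDA livers, the phosphatase gene Dusp1 (1.64, adjusted p = 0.0365, called in 11 of 24 alternatives), and 1 was lower, Fkbp5. Over all features 1.59% were higher and 2.50% passed in that comparison. Fkbp5, a receptor co-chaperone, stood at 9.73 to 9.80 in KO LPS and 9.38 to 9.65 in KO UT livers, against 10.87 to 10.97 in IDA LPS and 10.18 to 10.90 in IDA UT livers. KO was thus below IDA in both states, with log2 ratios of -1.16 after LPS and -1.16 without it (adjusted p = 0.000694 and 0.00899). After LPS, 2 of the 8 were higher (Sgk1 and Pck1, 1.16 and 0.66) and 2 lower (Fkbp5 and Zbtb16, -1.16 and -0.86). Over all features 16.1% were higher and 29.8% passed there. The genes of this list did not move in 1 direction, and its median ratio was -0.01 without LPS and 0.07 after it.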

How the data were processed

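Livers of 12 mice were arrayed without pooling (Illumina BeadChips, read with GenomeStudio, version not stated). The raw average bead intensity per probe and its detection p-value, as deposited by the authors without normalization, were used; the authors' cubic spline intensities (median 137.6 on every array) served as an alternative. Of 45281 probes, 34885 carried 1 gene symbol, 18 several and 10378 none, with symbols brought up to date through RefSeq. Intensities were background-corrected, quantile-normalized and log2-transformed with neqc (offset 16; limma 3.58.1, R 4.3.3), and probes with detection p under 0.01 in at least 1 liver (16286) were kept. The brightest probe per gene gave 9307 genes, tested with 2264 unnamed probes. These intensities are not comparable between probes.

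All 12 arrays entered 1 limma model of 4 group means, with Benjamini-Hochberg adjustment over 11571 features within each of 7 contrasts, and a gene passed at adjusted p under 0.05. Genes named are the 10 members, every gene of 3 lists, Tmprss6 and the 2 genes nearest each passing member. Members and lists were chosen with earlier results of these data known. The model fit, but not the steps before it, was tested on simulated log2 intensities, for the contrast of KO LPS and IDA LPS livers. P-values measure the spread between livers within groups, pooled over the 4 groups and moderated across features. The 3 livers of a group limit the precision. Alternatives were the authors' intensities, other background, scaling, filter, probe and moderation choices, the compared groups alone, replicate blocks, Xist-positive livers, and leaving out each liver. Figures used matplotlib 3.10.9 (Python 3.11.15).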

Additional observations from a re-analysis of the deposited data

Results flagged for a closer look

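In 4 genes of the clock and its output the LPS response differed between KO and IDA livers by the Interaction contrast of limma, given as the KO response minus the IDA response on the log2 scale. Usp2 differed by 2.74 (adjusted p = 0.000769), with a smaller fall in KO livers, and by 1.71 to 3.15 over the 23 alternatives, the lowest with the mean of detected probes. Csnk1d differed by -1.10 (adjusted p = 0.0012), lower with LPS in KO livers and higher with LPS in IDA livers (-1.15 to -0.64 over the alternatives). Cdkn1a differed by -1.70 (adjusted p = 0.0333), with a rise called in IDA livers, and this difference was called in 14 of 23 alternatives (-2.45 to -1.36). Dbp differed by 1.02 (adjusted p = 0.0339), with the fall called in IDA livers, and was called in 13 of 23 alternatives. Dbp was the call among 9 tested members, Csnk1d among 7 other clock genes, and Usp2 and Cdkn1a among 10 output genes. Of the 8 glucocorticoid-induced genes, screened too, 0 passed. Over all features 10.9% had a called Interaction, against 11.1% of the members.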

How the results depend on the processing

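No member's log2 ratio that passed changed sign in the alternatives run, and of 400 such values 349 stayed past the threshold and 51 did not. Counts of members called moved by over 1.5 times as follows. For Interaction, 1 gene became 4 with the authors' intensities, 4 without background correction, 2 with detection in at least 3 livers, 0 with no filter on dim probes, 2 with the mean of detected probes, 3 with a trended and robust variance and 2 without the Xist-positive livers. For LPS in KO livers, 2 became 0 with no filter, 1 without the Xist-positive livers and 0 with a term for them. For KO over IDA without LPS, 2 became 0 with the compared groups alone and 1 both without the Xist-positive livers and with a term for them. For LPS in IDA livers 3 became 6, and for Genotype 4 became 2, without the Xist-positive livers. Leaving out 1 liver at a time gave 0 to 3 for Interaction, 0 to 4 for LPS in KO livers, 3 to 7 for LPS in IDA livers, 1 to 3 for KO over IDA after LPS, 0 to 3 without LPS, 3 to 5 for Genotype and 3 to 4 for Treatment. With 3 livers a group, calls near the threshold turn on single livers. Per3 and Cry1 lie at background, where no ratio can be read.

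The labels do not say whether livers of the same number share more than that number. Their deviations correlated at -0.115 to 0.242, and each KO LPS liver matched best the KO UT liver of its own number. A shared batch was not tested further. With replicate number as a block, the count for LPS in KO livers went to 1 gene from 2, and Nr1d1 passed for KO over IDA without LPS (1.18, adjusted p = 0.0466).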
